A study of Homo sapiens with 12 samples.

Results

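Interferon-stimulated effector genes are the genes that a cell switches on when interferon has bound its receptors, and they encode the proteins that block viruses, edit or degrade RNA, attach ISG15 to other proteins and promote cell death. The set followed here held 49 of the 20033 protein-coding genes of GENCODE v44 on chromosomes 1 to 22, X and Y. Its members were chosen by name and not by a cut on measured values, but with earlier results of these data known. Each was measured as the 100-bp bins that lay within 10 kb of any of its annotated transcription start sites. By role the set comprised 9 membrane and mitochondrial effectors, 6 genes of ISG15 conjugation, 11 RNA and nucleotide effectors, 5 PARP and DTX3L genes, 5 TRIM ubiquitin ligases, 3 PML nuclear body genes and 10 other induced proteins. The windows of 20 members also held the start of another coding gene, and overlapping windows joined the 49 members into 42 loci, of which 36 held 1 member.

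Chromatin accessibility was profiled by ATAC-seq, in which a transposase cuts and tags open DNA, in 2 human cancer cell lines. DU-145 is a castration-resistant prostate cancer (CRPC) line, and BT-549 is a triple-negative breast cancer (TNBC) line. Per the study's methods, both lines carried a lentiviral tet-inducible MUC1 short hairpin RNA under puromycin selection and were exposed for 7 days to vehicle (0.1% DMSO) or to doxycycline (DOX), which turns the hairpin on. Each of the 4 groups (DU-145 with vehicle, DU-145 with DOX, BT-549 with vehicle and BT-549 with DOX) had 3 biologically independent replicates, giving 12 libraries. One label field calls the vehicle cells untreated, whereas the treatment protocol names the DMSO vehicle. All 4 groups carried the hairpin construct and no arm with a control hairpin was analysed here, so an effect of DOX itself and an effect of MUC1 silencing cannot be told apart.

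Type I interferons signal through the IFNAR1 and IFNAR2 receptor chains and the kinases JAK1 and TYK2 to a complex that includes IRF9 and binds the interferon-stimulated response element (ISRE) in the promoters of these genes. Type II interferon acts mainly through another element, the gamma-activated site (GAS). Tumour cells can hold this program in a lasting, low-level state in which the effectors remain expressed without an infection. MUC1 encodes a membrane mucin whose C-terminal subunit has been linked to inflammatory signalling and chromatin remodelling in carcinoma cells.

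The bins of DU-145 formed 79177 accessible regions and those of BT-549 46298, and a region was kept when it was called in at least 3 replicates of that line. Bin coverage summed to between 12370094 and 25232000 in the DU-145 libraries and to between 9142900 and 13606129 in the BT-549 vehicle libraries, but to only 2502510 to 3267024 in the BT-549 DOX libraries. Levels are given below as normalised coverage, the coverage summed over the bins of a window or region, divided by the sum of its library and multiplied by 1000000. In BT-549 the depth therefore moved with the treatment, and between 8.84% and 16.9% of the bins of the DOX libraries held a coverage under 1, against at most 0.117% in vehicle. The promoters of CDH1, EPCAM, KRT8 and KRT18, which mark epithelial cells, held bins in DU-145 but none in BT-549, while those of VIM, ZEB1, FN1 and COL1A1, which mark mesenchymal cells, held bins in both lines. Of the leukocyte markers, CD3E and SPI1 had no promoter bins in either line, and PTPRC had 7 bins in DU-145 alone, with a level of at most 1.36 in vehicle. At the promoter of MUC1 the normalised coverage was 53.5, 53.4 and 49.3 in DU-145 with vehicle and 37.0, 41.9 and 40.0 with DOX (log2 difference -0.39, SE 0.09, adjusted p = 0.000353). In BT-549 it was 102, 118 and 99.1 with vehicle and 86.7, 87.3 and 89.7 with DOX (log2 difference -0.28, SE 0.11, adjusted p = 0.0525). The hairpin acts on the transcript, so the openness of the promoter does not check the knockdown.

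The letters of the ISRE are shown for 8 members because this element joins most of the set. RefSeq promoters on GRCh38.p14, each running from 250 bases before to 50 bases after a start, were at hand for 43 members. The 6 members with no entry were APOL6, IFITM2, PARP10, PML, TRIM22 and USP18. The motif of GAAA, any 2 bases and again GAAA, searched on both strands, occurred in 30 of the 43 members (69.8%) and in 3.57% of all 35116 promoters. Capitals mark the motif, and every stretch reads 5′ to 3′ on the strand that holds it.
RSAD2: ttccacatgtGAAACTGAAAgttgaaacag
IFI6: ggagagagggGAAAATGAAActgcagagtg
IFI44: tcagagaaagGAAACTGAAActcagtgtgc
BST2: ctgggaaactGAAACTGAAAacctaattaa
DDX60: gtgctgaaggGAAACTGAAAcctaagtgct
ISG15: tcgggaaaggGAAACCGAAActgaagccaa
EIF2AK2: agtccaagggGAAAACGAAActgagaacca
IFITM3: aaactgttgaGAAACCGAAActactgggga

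The stretch of ISG15 lay on the plus strand at chr1:1013380-1013409. The other 7 lay on the minus strand, RSAD2 at chr2:6877622-6877651, IFI6 at chr1:27672288-27672317, IFI44 at chr1:78649761-78649790, BST2 at chr19:17405735-17405764, DDX60 at chr4:168318821-168318850, EIF2AK2 at chr2:37156967-37156996 and IFITM3 at chr11:320876-320905. Of the other motifs searched on both strands, the GAS letters TTCNNNGAA occurred in 11 of the 43 members (25.6%), against 7.66% of all promoters. The AP-1 letters TGACTCA occurred in 3 of them (6.98%), against 4.95% of all promoters.

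The first question was whether the windows of the effector genes changed with DOX in BT-549 cells. All 49 members had bins in this line, between 5 and 197 of them each. With DOX the coverage was lower at 37 members, higher at 1 and not called at 11, where a call is an adjusted p under 0.05 in edgeR's quasi-likelihood test over all genes. Among all 15606 genes tested, 10.3% were called lower and 18.4% higher, so that 64.0% of all calls were higher, or 51.7% with TMM factors (0 higher and 40 lower members). The 37 lower members came from 30 loci and their log2 differences ran from -2.06 to -0.35, with 19 of them lower by at least 2-fold. The median over the 49 members was -0.82 on the log2 scale, compared with 0.062 over all genes tested. In 36 of the 37 lower members the DOX and vehicle libraries did not overlap, a pattern found in this direction in 16.1% of all genes. In bulk libraries, fewer cells with an open window and less opening in each cell cannot be told apart.

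**Figure D1:**
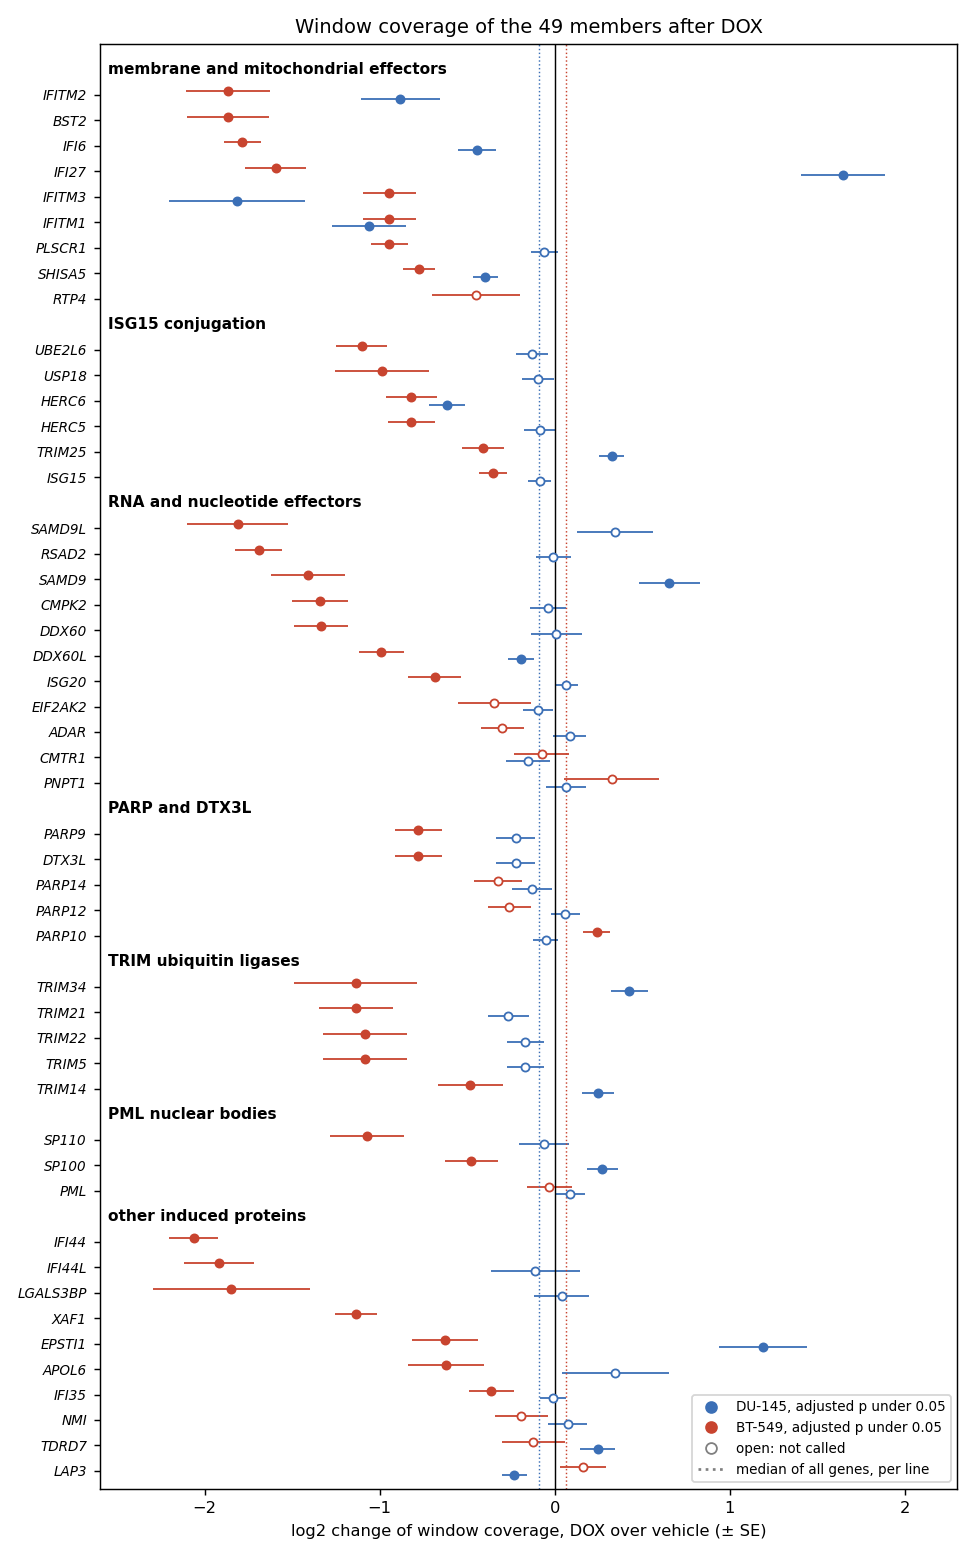
Log2 difference in window coverage, DOX minus vehicle, of the 49 interferon-stimulated effector genes in BT-549 and DU-145 (x axis, log2 scale; bars, SE of the fit; 3 against 3 libraries), with the genes on the y axis grouped by role. Of the BT-549 values 37 were called lower and 1 higher, while DU-145 had 8 members called in each direction and 4 without bins.

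Among the membrane and mitochondrial effectors, 8 of 9 were lower in BT-549 with DOX and 1 was not called, with a median log2 difference of -0.94. IFI6, an endoplasmic reticulum protein that limits flavivirus replication, had the smallest p of the set. Its normalised coverage over 82 bins was 220.3, 243 and 194 with vehicle and 64.5, 67.5 and 59.7 with DOX. The 3 DOX libraries lay well below the 3 vehicle libraries, 3.44-fold lower in the fit (log2 difference -1.78, SE 0.11, adjusted p = 2.33e-16). IFITM2, a membrane protein that hinders viral fusion, had 24.4, 29.6 and 23.4 with vehicle and 8.54, 5.94 and 6.88 with DOX. All of its bins lay outside its own promoter, and every DOX value was below every vehicle value (log2 difference -1.87, SE 0.24, adjusted p = 1.35e-07). Its 21 bins include the 10 promoter bins of the neighbour IFITM1, so its value is not independent of that of IFITM1 and IFITM3. IFITM3, the best known virus entry inhibitor of that family, had 54.1, 53.7 and 51.5 with vehicle and 27.9, 25.5 and 29.2 with DOX, without overlap (log2 difference -0.94, SE 0.15, adjusted p = 6.47e-06). The windows of IFITM1 and IFITM3 held exactly the same bins, so these 2 genes gave 1 measurement, and reads can be shared among the near-identical IFITM copies. IFITM3 was no longer called when the window was cut to 1 kb (log2 difference -0.40, adjusted p = 0.128).

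BST2 encodes tetherin, which holds budding virions on the cell surface, and its coverage was 31.0, 28.5 and 25.4 with vehicle and 9.58, 5.08 and 8.17 with DOX. The DOX libraries were 3.65-fold lower in the fit (log2 difference -1.87, SE 0.23, adjusted p = 8.84e-08). IFI27, a mitochondrial protein and a common blood marker of interferon exposure, had 43.7, 48.9 and 49.1 with vehicle and 14.7, 18.0 and 14.4 with DOX. Again all 3 DOX values lay below all 3 vehicle values (log2 difference -1.59, SE 0.18, adjusted p = 5.63e-09). PLSCR1, a phospholipid scramblase that restricts virus entry, had 186, 181 and 179.7 with vehicle and 106, 74.2 and 102 with DOX, with the second DOX library the lowest (log2 difference -0.94, SE 0.10, adjusted p = 4.99e-09). Its difference lay away from the start: within 1 kb it was -0.24 with an adjusted p of 0.154. SHISA5, a membrane protein tied to apoptosis, had 222, 242 and 211 with vehicle and 127, 124 and 141 with DOX (log2 difference -0.78, SE 0.09, adjusted p = 1.94e-08). RTP4, a chaperone of receptor transport, was the member of this role that was not called, since its vehicle values of 17.7, 14.9 and 21.9 overlapped its DOX values of 18.7, 7.25 and 13.6 (log2 difference -0.45, SE 0.25, adjusted p = 0.181).

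All 6 genes of ISG15 conjugation were lower in BT-549 with DOX, with log2 differences from -1.10 to -0.35. The window of ISG15 itself, the ubiquitin-like modifier, changed least of the 6. It was the widest of the set with 197 bins and also held the starts of AGRN and HES4, whose part in the value was not tested. Its coverage was 417, 444 and 401 with vehicle and 362, 291 and 333 with DOX. No DOX library reached the lowest vehicle library (log2 difference -0.35, SE 0.08, adjusted p = 0.000754). USP18, the protease that removes ISG15 and also restrains the interferon receptor, rested on 7 bins and had 13.5, 14.4 and 13.2 with vehicle and 6.94, 5.89 and 7.80 with DOX, 1.98-fold lower without overlap (log2 difference -0.99, SE 0.27, adjusted p = 0.00496). UBE2L6, the ISG15-conjugating enzyme, fell by 1.10 on the log2 scale. The ligases HERC5 and HERC6 each fell by 0.82, and TRIM25, which also ubiquitinates RIG-I, fell by 0.41.

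Of the 11 RNA and nucleotide effectors, 7 were lower with DOX and 4 were not called. RSAD2 encodes viperin, which makes a chain-terminating nucleotide, and CMPK2 is the neighbouring mitochondrial nucleotide kinase. The coverage of RSAD2 was 104, 91.0 and 103 with vehicle and 30.0, 27.8 and 33.8 with DOX, 3.23-fold lower (log2 difference -1.69, SE 0.13, adjusted p = 1.21e-12). CMPK2 had 57.3, 49.7 and 59.3 with vehicle and 20.8, 21.6 and 23 with DOX (log2 difference -1.34, SE 0.16, adjusted p = 2.36e-08). DDX60, a helicase-like protein of antiviral RNA sensing, had 58.0, 68.0 and 64.6 with vehicle and 21.3, 28.5 and 25.6 with DOX (log2 difference -1.34, SE 0.15, adjusted p = 1.1e-08). In all 3 genes the groups were clearly apart. The window of RSAD2 also held the CMPK2 start and all 18 bins of CMPK2, so the values of these 2 genes are not independent. SAMD9 and SAMD9L, paralogs that restrict poxviruses, fell by 1.41 and 1.81 on the log2 scale, and DDX60L, the paralog of DDX60, by 0.99; reads of such pairs can be shared, so the split between them is uncertain.

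EIF2AK2, the kinase PKR that halts translation on double-stranded RNA, had 20.8, 20.7 and 21.9 with vehicle and 15, 20.6 and 14.8 with DOX. Its second DOX library almost reached the lowest vehicle library, and the difference was not called (log2 difference -0.35, SE 0.21, adjusted p = 0.223). ADAR, which edits adenosines in double-stranded RNA, had 77.0, 77.8 and 73.8 with vehicle and 66.6, 63.0 and 56.5 with DOX, and its adjusted p lay just above the threshold (log2 difference -0.30, SE 0.12, adjusted p = 0.0585). ADAR was called lower with TMM or DESeq2 size factors, loess offsets, the GC correction or the DESeq2 test, with adjusted p from 0.0153 to 0.045, and without DOX replicate 1 (-0.35, adjusted p = 0.0425). The other 2 uncalled members, CMTR1 and PNPT1, had log2 differences of -0.075 and 0.33, with overlapping groups.

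The PARP and DTX3L genes were the least uniform role in BT-549. PARP9 and DTX3L, an ADP-ribosyltransferase and its partner ubiquitin ligase, are transcribed from 1 shared stretch of promoter, held the same bins and fell together by 0.78 on the log2 scale. PARP12 and PARP14 were not called. PARP10, a mono-ADP-ribosyltransferase, was the only member called higher, with 264, 311 and 282 over 163 bins with vehicle and 348, 331 and 332 with DOX. Its DOX libraries lay above its vehicle libraries by 1.18-fold (log2 difference 0.24, SE 0.08, adjusted p = 0.0206). This call was lost with TMM or DESeq2 size factors, loess offsets, the GC correction or the DESeq2 test (log2 differences 0.10 to 0.18). It was also lost without DOX replicate 1 (0.21), vehicle replicate 1 (0.18) or vehicle replicate 3 (0.23), and within 1 kb (-0.00080). It held with limma and with the replicate number as a block. The PARP10 window also held the starts of GRINA, PLEC and SPATC1, and their part in the value was not tested. A higher window without overlap was found for 24.7% of all genes.

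All 5 TRIM ubiquitin ligases were lower in BT-549 with DOX, by 0.48 to 1.14 on the log2 scale. TRIM5, which targets retroviral capsids, and its neighbour TRIM22 shared all their bins and gave 1 measurement. SP100 and SP110, proteins of the PML nuclear bodies, fell by 0.48 and 1.07. PML itself, the scaffold of these bodies, had 57.8, 60.6 and 67.9 with vehicle and 58.5, 56.8 and 66.2 with DOX, with overlapping groups (log2 difference -0.032, SE 0.13, adjusted p = 0.883).

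Of the 10 other induced proteins, 7 were lower with DOX. IFI44, a cytoplasmic protein strongly induced by type I interferon, had the lowest log2 difference of all 49 members. Its coverage was 107, 108 and 115 with vehicle and 32.4, 26.3 and 21.0 with DOX, 4.17-fold lower (log2 difference -2.06, SE 0.14, adjusted p = 1.36e-14). IFI44L, its neighbour and paralog, had 53.9, 55.2 and 52.1 with vehicle and 16.6, 6.26 and 18.7 with DOX, with the second DOX library far below the others (log2 difference -1.92, SE 0.20, adjusted p = 1.37e-09). XAF1, a pro-apoptotic antagonist of XIAP, had 113, 129 and 98.8 with vehicle and 47.1, 55.3 and 52.7 with DOX (log2 difference -1.14, SE 0.12, adjusted p = 2.77e-09). In all 3 the groups were fully separated. LGALS3BP, IFI35, EPSTI1 and APOL6 were lower by 0.36 to 1.85, and IFI35 was the 1 lower member whose groups overlapped. NMI, LAP3 and TDRD7 were not called, with log2 differences of -0.19, 0.16 and -0.12.

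**Figure D2:**
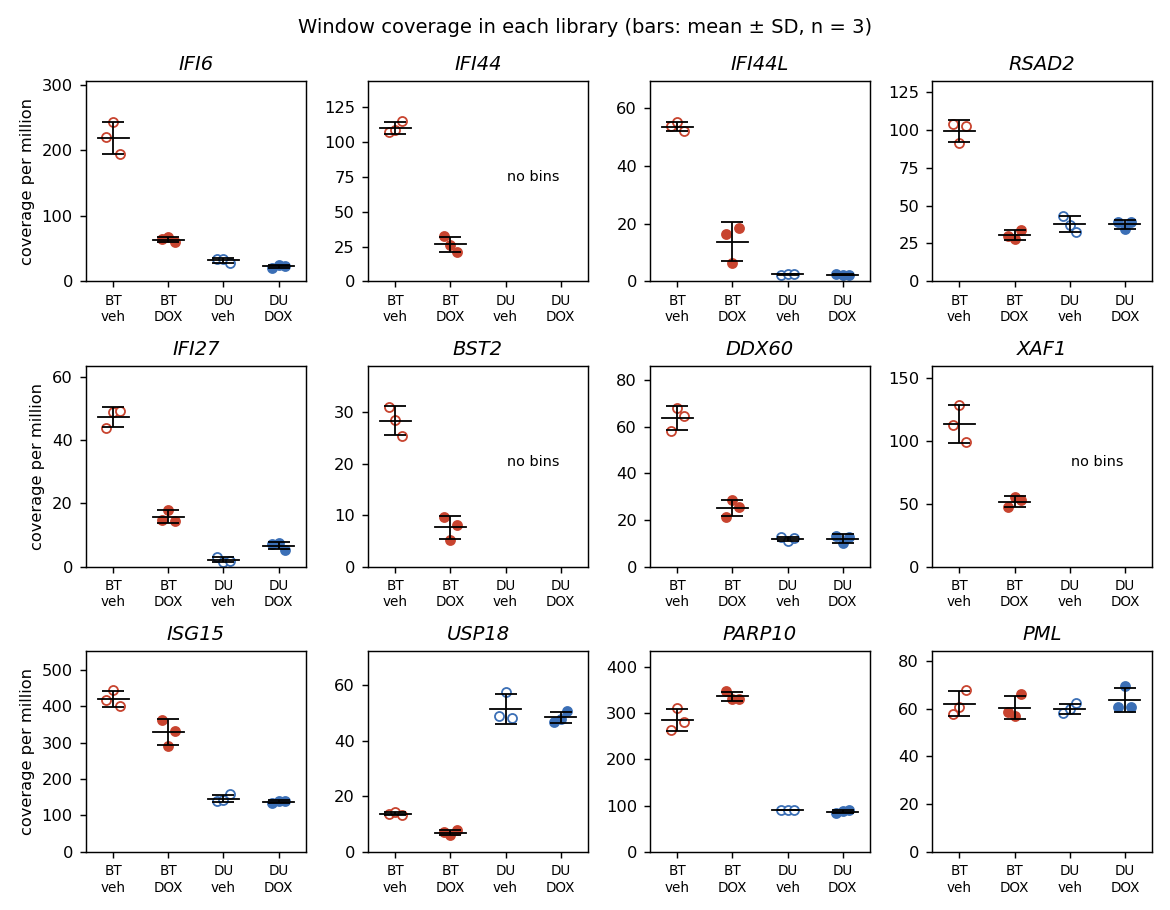
Normalised window coverage in each library (y axis, linear scale) for selected members in BT-549 and DU-145 with vehicle and with DOX. Points are libraries, and black lines are group mean ± SD. In BT-549 the DOX points of IFI6, RSAD2 and IFI44L lie below every vehicle point, whereas in DU-145 the points of RSAD2 and ISG15 overlap.

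The windows were next resolved into the accessible regions they touched. In BT-549 133 regions touched a member window, of which 68 were lower with DOX, 5 higher and 60 not called. Over all 46298 regions, 18% were lower and 12.2% higher, which made 40.4% of all calls higher, or 51.7% with TMM factors (58 lower and 6 higher member regions). The median log2 difference was -0.80 over the 133 regions and -0.10 over all regions. Of the 60 promoter regions, whose highest bin lay within 1 kb of a member's start, 37 were lower and 2 higher, and of the 69 regions between 1 and 10 kb away, 29 were lower and 3 higher. Among all regions 8.15% of those at promoters of coding genes were lower and 16.9% higher, and 18.4% and 9.46% of those at 1 to 10 kb. These shares took the distance from the start of any coding gene. A member region at 1 to 10 kb can thus lie at the promoter of a neighbouring gene, so the classes are not quite alike. The lower regions belonged to 41 members, 35 of them with a lower promoter region, and 37 of the 68 overlapped a region of the DU-145 table while 31 did not. A region is named here by its nearest member and by the distance of its highest bin from the nearest annotated start of that member. This need not be the canonical start, that of the main annotated transcript.

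The region with the smallest p lay 8828 bp downstream of the IFI6 start, at chr1:27662701-27668900. Its coverage was 169.8, 188 and 143 with vehicle and 30.4, 28.1 and 31.4 with DOX, 5.56-fold lower (log2 difference -2.48, SE 0.13, adjusted p = 3.78e-14). A region 7044 bp downstream of a PLSCR1 start (chr3:146509901-146515100) had 79.7, 79.4 and 81.3 with vehicle and 21.5, 9.25 and 17.0 with DOX (log2 difference -2.32, SE 0.18, adjusted p = 1.15e-10). The canonical start of PLSCR1 lies further upstream, at chr3:146544607. Both regions lay outside the promoter, and neither had a DOX library near the vehicle values. At IFI44 a region 2315 bp downstream of an annotated start (chr1:78664801-78668200), with the AP-1 letters near its highest bin, had 54.5, 53.7 and 56.0 with vehicle and 11.4, 5.35 and 3.59 with DOX, 8.38-fold lower (log2 difference -3.07, SE 0.24, adjusted p = 1.2e-10). The canonical start of IFI44 lies further upstream, at chr1:78649831. The promoter region of IFI44 (chr1:78646401-78650000), which holds the ISRE printed above, had 41.1, 43.3 and 46.5 with vehicle and 14.5, 12.3 and 14.6 with DOX (log2 difference -1.65, SE 0.18, adjusted p = 7.03e-08). The distal region thus fell further than the promoter, although the difference between them was not tested.

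Promoter regions also made up 4 more of the 8 lower regions with the smallest p. At IFI44L (chr1:78619201-78621100) the coverage was 39.5, 40.3 and 37.0 with vehicle and 8.38, 4.62 and 7.64 with DOX (log2 difference -2.46, SE 0.22, adjusted p = 2.03e-09). At RSAD2 (chr2:6877201-6878300), around the ISRE printed above, it was 33.4, 27.5 and 29.6 with vehicle and 3.65, 5.08 and 5.80 with DOX (log2 difference -2.62, SE 0.25, adjusted p = 6.33e-09). At these 2 promoters the DOX libraries kept only a small part of the vehicle coverage, 5.51-fold and 6.16-fold lower. The promoter region of CMPK2 (chr2:6864901-6866700) had 57.3, 49.7 and 59.3 with vehicle and 20.8, 21.6 and 23 with DOX (log2 difference -1.34, SE 0.16, adjusted p = 2.15e-07). That of SHISA5 (chr3:48471901-48473900), around a start other than the canonical start at chr3:48504174, had 78.9, 95.3 and 75.9 with vehicle and 30.5, 42.4 and 40.1 with DOX (log2 difference -1.14, SE 0.14, adjusted p = 4.03e-07). None of these 8 regions had a DOX library that reached a vehicle library.

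All 5 regions that were higher in BT-549 with DOX lay around PARP10, in a window that also holds the starts of GRINA, PLEC and SPATC1. The most covered, 7308 bp downstream of a start, had 147, 171 and 144 with vehicle and 204, 204 and 205 with DOX (log2 difference 0.41, SE 0.09, adjusted p = 0.001). A region 7178 bp upstream had 14.8, 23.6 and 18.6 with vehicle and 32.1, 31.3 and 28.7 with DOX (log2 difference 0.69, SE 0.19, adjusted p = 0.00758). One promoter region had 29.3, 28.8 and 41.4 with vehicle and 52.9, 53.3 and 41.1 with DOX (log2 difference 0.56, SE 0.16, adjusted p = 0.0101). In the third of these 1 DOX library lay within the vehicle values. The other 2 regions were weak, with 3.30, 3.86 and 2.08 against 13.6, 4.999 and 4.56 at the second promoter region (log2 difference 1.29, SE 0.39, adjusted p = 0.0129). The last, 7322 bp downstream, had 1.02, 1.77 and 1.44 against 7.59, 4.68 and 1.28, with overlap (log2 difference 1.64, SE 0.50, adjusted p = 0.0128). Of these 5 calls 3 were lost without vehicle replicate 1 (0.54, 0.48 and 1.45 for the regions at 7178 bp, the first promoter region and 7322 bp), 1 without vehicle replicate 2 (0.47 for the first promoter region), and those of the 2 weak regions without DOX replicate 1 (0.64 and 0.999) or vehicle replicate 3 (1.10 and 1.65). The call at 7308 bp was lost with the GC correction (0.23), loess offsets (0.22) or the highest bin of the region (0.088), and that of the first promoter region with the GC correction (0.38) or its highest bin (0.31). The call at 7178 bp was lost with its highest bin (0.50), and those of the 2 weak regions with limma (0.99 and 1.01).

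**Figure D3:**
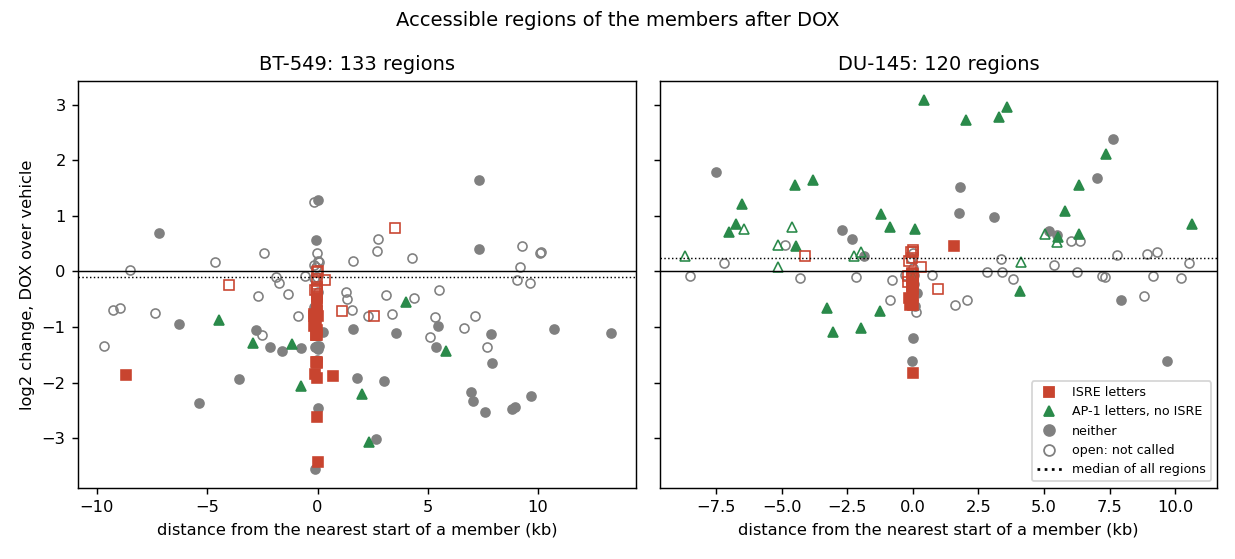
Log2 difference (y axis, DOX minus vehicle) of the accessible regions of the members against the distance of their highest bin from the nearest member start (x axis, kb), by line. Shape and colour mark the ISRE or AP-1 letters, filled points were called, and dotted lines mark the median of all regions. In BT-549 68 of 133 regions were lower with DOX at all distances, and in DU-145 27 of the 31 higher regions lay between 1 and 10 kb from a start.

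The peaks called in each library gave a second readout, library by library. A member was counted when a peak summit lay within 1 kb of one of its starts. In BT-549 48, 49 and 48 of the 49 members had such a peak in the vehicle libraries (48.3 ± 0.577, SD, n = 3) and 35, 36 and 34 in the DOX libraries (35.0 ± 1.0, SD, n = 3). The groups did not overlap, and the 2-sided exact permutation p was 0.1, the smallest that 3 against 3 libraries allow. The peak lists of the DOX libraries were shorter, with 30450 to 39837 peaks against 65204 to 93929, and the share of all coding genes with a promoter peak was 62.6% to 65.0% with DOX against 70.6% to 73.0% with vehicle. How far this shallower depth entered the members' counts was not tested. The promoter peaks of IFITM1, BST2, SAMD9, SAMD9L, TRIM22, TRIM34, IFI35, IFI44 and IFI44L were present in all 3 vehicle libraries and in none of the 3 DOX libraries. The share of all coding genes with this pattern was not counted, so the list is a description only.

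In DU-145 40, 39 and 38 members had a promoter peak with vehicle (39.0 ± 1.0, SD, n = 3) and 37, 41 and 38 with DOX (38.7 ± 2.08, SD, n = 3), an overlap with an exact permutation p of 1. The height of the peaks, as fold enrichment over the local background in the authors' peak calls, was lower with DOX in BT-549 at nearly all genes. Of the 31 members with a promoter peak in all 6 BT-549 libraries, 30 had every DOX peak below every vehicle peak, and so had 93.8% of the 11563 coding genes with such peaks. The median log2 ratio of the mean heights was -1.93 over these members and -1.17 over these coding genes. PARP10, higher by window coverage, had 59.6, 66.2 and 39.5 with vehicle and 10.6, 13.2 and 8.79 with DOX. ISG15 had 70.4, 85.8 and 61.0 with vehicle and 16.8, 17.8 and 14.5 with DOX. RSAD2 had 34.0, 32.7 and 27.6 with vehicle and 7.83, 6.59 and 5.17 with DOX, and IFI6 had 66.6, 72.9 and 53.5 and 10.6, 25.1 and 12.4. At all 4 genes every DOX peak was lower than every vehicle peak, as at most coding genes. IFI44L, at 24.3, 28.5 and 16.2 with vehicle, and BST2, at 19.8, 25.1 and 14.0, had no called peak with DOX. IFITM3 had 18.0, 18.8 and 11 with vehicle and 3.92, 6.59 and 4.66 with DOX in BT-549, and in DU-145 8.26, 6.92 and 6.27 with vehicle and no called peak with DOX.

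**Figure D4:**
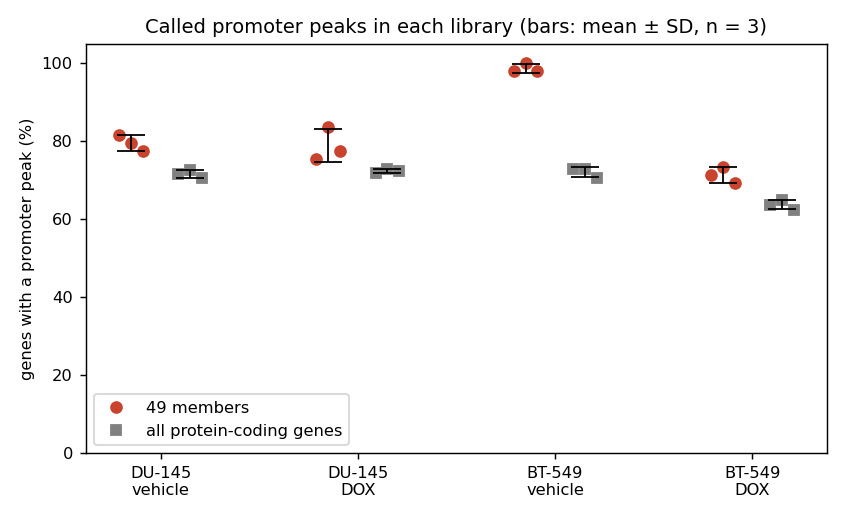
Share of the 49 members, and of all protein-coding genes, with a called peak summit within 1 kb of a start (y axis, percent, starting at 0). Points are libraries, by group, and bars are mean ± SD. The BT-549 DOX libraries held 34 to 36 members with a peak against 48 or 49 with vehicle, while the DU-145 groups overlapped at 37 to 41.

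In DU-145 the same treatment moved fewer members, and in both directions. BST2, RTP4, IFI44 and XAF1 had no bins in this line, leaving 45 members, of which 8 were higher, 8 lower and 29 not called. Over all 16969 genes tested, 16.3% were called higher and 33.4% lower, so that the lower members were a smaller share of their set (17.8%) than the lower genes were of all genes. The groups did not overlap at any of the 16 called members, while over all genes 18.6% were higher and 36.6% lower without overlap. The median log2 difference was -0.061 over the members and -0.092 over all genes. Of all calls 32.8% were higher here and 49.7% with TMM factors, which gave 9 higher and 6 lower members. Besides the 4 members without bins, 5 had bins but none within 1 kb of a start (IFITM1, IFI27, SAMD9L, TRIM22 and IFI44L).

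The lower members in DU-145 were led by the membrane effectors, with 5 of the 7 tested called lower. IFITM1 had 8.94, 6.11 and 6.55 with vehicle and 2.42, 3.95 and 3.71 with DOX (log2 difference -1.06, SE 0.21, adjusted p = 8.47e-05). IFITM2 had 6.94, 4.70 and 4.98 with vehicle and 2.13, 3.32 and 3.33 with DOX (log2 difference -0.88, SE 0.23, adjusted p = 0.00131), and IFITM3, on 3 bins, 2.004, 1.42 and 1.57 with vehicle and 0.291, 0.636 and 0.385 with DOX (log2 difference -1.81, SE 0.39, adjusted p = 0.000187). All 3 were separated between the groups, yet they are neighbours whose windows overlap, and their coverage was low. The 14 bins of IFITM1, none within 1 kb of its starts, were the 11 of IFITM2 and the 3 of IFITM3. IFITM1 was therefore not a separate measurement here, and the 8 lower members came from 6 loci. IFI6 had 34.0, 33.7 and 28.4 with vehicle and 21.0, 25.4 and 24.1 with DOX (log2 difference -0.45, SE 0.11, adjusted p = 0.000867). SHISA5 had 109.7, 109.9 and 109 with vehicle and 75.3, 91.2 and 82.6 with DOX (log2 difference -0.40, SE 0.07, adjusted p = 2.15e-05). PLSCR1 was not called (log2 difference -0.061). Within 1 kb the SHISA5 call was lost (-0.15, adjusted p = 0.232).

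HERC6, a relative of the ISG15 ligase HERC5, had 41.7, 34.3 and 39.1 with vehicle and 25.3, 24.2 and 25.4 with DOX (log2 difference -0.61, SE 0.10, adjusted p = 5.98e-06), the smallest p of the lower members. LAP3, a leucine aminopeptidase, had 111, 108 and 92.8 with vehicle and 90.6, 86.4 and 89.4 with DOX (log2 difference -0.23, SE 0.07, adjusted p = 0.00775). DDX60L had 80.4, 80.2 and 73.9 with vehicle and 68.7, 67.6 and 69.0 with DOX (log2 difference -0.19, SE 0.08, adjusted p = 0.0317). The groups did not overlap in any of the 3. The last 2 calls were lost with TMM or DESeq2 size factors, loess offsets or the DESeq2 test, and without DU-145 vehicle replicate 1 (-0.18 for LAP3 and -0.17 for DDX60L) or vehicle replicate 2 (-0.20 and -0.17). The LAP3 call was also lost with the GC correction (-0.089), and that of DDX60L without DOX replicate 2 (-0.18) or DOX replicate 3 (-0.20).

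Of the 8 members higher in DU-145 with DOX, IFI27 changed most, with 3.002, 1.60 and 1.82 with vehicle and 7.01, 7.42 and 5.31 with DOX (log2 difference 1.65, SE 0.24, adjusted p = 5.6e-07). Its 7 bins all lay in a single region 3786 bp upstream, within an exon of the neighbouring gene IFI27L1, so that the IFI27 promoter itself was not measured in DU-145. EPSTI1, a stromal interaction protein first described in breast cancer, rested on 6 bins and had 1.68, 1.5 and 2.09 with vehicle and 4.13, 3.87 and 3.75 with DOX (log2 difference 1.19, SE 0.25, adjusted p = 0.000157). SAMD9 had 5.17, 5.95 and 5.55 with vehicle and 9.33, 7.87 and 9.39 with DOX (log2 difference 0.65, SE 0.17, adjusted p = 0.00198). All 3 were clearly higher with DOX but had low coverage. TRIM34 had 22.9, 24.9 and 26.9 with vehicle and 37.4, 30.7 and 32.4 with DOX (log2 difference 0.43, SE 0.11, adjusted p = 0.00118). TRIM25 had 90.8, 113 and 111 with vehicle and 133, 136 and 125 with DOX (log2 difference 0.32, SE 0.07, adjusted p = 0.00034).

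The other 3 rose by less. SP100 had 42.9, 39.2 and 42.9 with vehicle and 52.3, 50.04 and 48.2 with DOX (log2 difference 0.27, SE 0.09, adjusted p = 0.0105). TRIM14, an adaptor of antiviral signalling, had 41.5, 38.5 and 36.6 with vehicle and 47.6, 42.8 and 47.9 with DOX (log2 difference 0.245, SE 0.09, adjusted p = 0.0249), and TDRD7, a tudor-domain protein, 28.8, 30.4 and 32.0 with vehicle and 32.6, 38.2 and 37.0 with DOX (log2 difference 0.245, SE 0.10, adjusted p = 0.0391). Within 1 kb of the starts none of the members was called higher and 10 of the 40 with bins there were lower (25.0%), against 8.27% higher and 39.0% lower among all genes with that window. With that window TRIM25, SP100, TRIM14 and TDRD7 had log2 differences of -0.16, -0.10, -0.044 and -0.023. The SAMD9 call was lost with the GC correction (0.21, adjusted p = 0.323), and the count of higher members fell to 5 without DU-145 vehicle replicate 2. Without that library the calls of SP100 (0.23), TRIM14 (0.24) and TDRD7 (0.24) were lost. TRIM14 lost it also without DOX replicate 1 (0.22), DOX replicate 3 (0.22) or vehicle replicate 3 (0.21), and TDRD7 without DOX replicate 2 (0.20), DOX replicate 3 (0.22) or vehicle replicate 1 (0.21).

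The other members listed for every comparison were not called in DU-145. ISG15, whose window also holds the starts of AGRN and HES4, had 139, 142 and 158 with vehicle and 133, 141 and 138 with DOX (log2 difference -0.086, SE 0.06, adjusted p = 0.28). USP18 had 48.8, 57.7 and 48.2 with vehicle and 46.8, 47.9 and 50.6 with DOX (log2 difference -0.10, SE 0.09, adjusted p = 0.389). RSAD2 had 43.3, 37.3 and 32.8 with vehicle and 39.4, 34.4 and 39.3 with DOX (log2 difference -0.008, SE 0.10, adjusted p = 0.955). In all 3 the groups overlapped. The same held for IFI44L, with 2.23, 2.53 and 2.56 and 2.5, 2.10 and 2.28 over 4 bins (log2 difference -0.11, SE 0.26, adjusted p = 0.746). ADAR had 45.3, 61.7 and 59.5 with vehicle and 58.8, 60.6 and 57.6 with DOX (log2 difference 0.085, SE 0.09, adjusted p = 0.469), and PML 58.1, 59.7 and 62.3 and 60.8, 69.4 and 60.8 (log2 difference 0.088, SE 0.08, adjusted p = 0.393). Both overlapped, and neither was called, although PML was called higher with the GC correction (0.24) or loess offsets (0.22). EIF2AK2 had 50.3, 56.5 and 55.9 with vehicle and 49.4, 48.6 and 54.2 with DOX (log2 difference -0.10, SE 0.09, adjusted p = 0.365). It was called lower within 1 kb of its start (log2 difference -0.60, adjusted p = 1.73e-05).

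Set side by side, 7 members were lower in BT-549 and higher in DU-145, 7 were lower in both lines, 20 were lower in BT-549 and not called in DU-145, and 3 were lower in BT-549 and had no bins in DU-145. Of the 11 members not called in BT-549, 8 were not called in DU-145 either. Among all genes 10.3% were lower in BT-549, and 33.4% were lower and 16.3% higher in DU-145. The joint tally was not made over all genes.

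In DU-145 120 accessible regions touched a member window. With DOX 31 were higher, 21 lower and 68 not called, against 37.1% higher and 17.4% lower among all 79177 regions, and the median log2 difference was 0.072 over the 120 regions and 0.24 over all regions. Of the 50 promoter regions 3 were higher and 14 lower, whereas of the 67 regions between 1 and 10 kb away 27 were higher and 7 lower. All regions were split by their distance from the start of any coding gene, not of a member, so the classes are not quite alike. Among them 13.7% were higher and 33.2% lower at the 16952 promoter regions. At the 20889 regions at 1 to 10 kb, 39.0% were higher and 12.7% lower. The higher regions belonged to 19 members, and 21 of the 31 overlapped no region of the BT-549 table. The balance depended on the scaling, with 27 higher and 42 lower with TMM factors, which moved the median of all regions by -0.19, and 68.0% of all calls were higher here against 54.1% with those factors.

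The 8 higher regions with the smallest p were weakly covered with vehicle. At 7614 bp downstream of an ISG20 start (chr15:88659101-88660100), a gene for an RNA exonuclease, the coverage was 1.86, 3.10 and 2.28 with vehicle and 14.0, 11.1 and 14.1 with DOX (log2 difference 2.38, SE 0.20, adjusted p = 2.65e-12). In an ADAR intron (chr1:154595701-154596300) it was 0.477, 0.967 and 1.05 with vehicle and 7.04, 6.19 and 6.75 with DOX (log2 difference 2.95, SE 0.27, adjusted p = 1.86e-11). At PNPT1, a mitochondrial RNA phosphorylase (chr2:55646701-55647200), it was 0.236, 0.630 and 0.257 with vehicle and 3.97, 3.17 and 3.48 with DOX (log2 difference 3.09, SE 0.36, adjusted p = 4.32e-09). The PNPT1 region lay by an annotated start far from the canonical start at chr2:55693844. These 3 regions held at most 3.10 with vehicle and between 3.17 and 14.1 with DOX. At TRIM25 (chr17:56888001-56888500), far downstream of the canonical start at chr17:56914049, the values were 0.728, 0.395 and 0.922 with vehicle and 4.64, 4.59 and 3.41 with DOX (log2 difference 2.77, SE 0.32, adjusted p = 4.82e-09). At TDRD7 (chr9:97419001-97419800) they were 0.923, 0.908 and 1.63 with vehicle and 5.44, 4.62 and 4.48 with DOX (log2 difference 2.10, SE 0.27, adjusted p = 4.54e-08). At SAMD9 (chr7:93115801-93116300) they were 0.560, 0.332 and 0.288 with vehicle and 3.75, 2.02 and 2.47 with DOX (log2 difference 2.73, SE 0.38, adjusted p = 2.16e-07). Upstream of DDX60L (chr4:168486901-168488000) a stronger region had 9.995, 9.07 and 8.75 with vehicle and 16.7, 16.9 and 16.8 with DOX (log2 difference 0.86, SE 0.14, adjusted p = 2.61e-06). The region upstream of IFI27 (chr14:94100701-94101400) carried the values given for its window. The AP-1 letters lay near the highest bin of 7 of these 8 regions, the exception being that of ISG20. They also lay there in 19 of the 31 higher member regions and in 13124 of the 29363 higher regions of the whole DU-145 table.

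The 8 lower regions with the smallest p in DU-145 included 4 promoter regions. The promoter region of EIF2AK2 (chr2:37155801-37157700), around the ISRE printed above, had 36.8, 40.3 and 37.8 with vehicle and 19.9, 26.6 and 29.1 with DOX (log2 difference -0.60, SE 0.11, adjusted p = 2.38e-05). That of HERC6 (chr4:88378601-88379600) made up its whole window (log2 difference -0.61, SE 0.10, adjusted p = 4.03e-06). The promoter region of IFITM2 (chr11:307801-308500) had 5.71, 3.61 and 3.79 with vehicle and 1.66, 2.06 and 1.88 with DOX (log2 difference -1.20, SE 0.25, adjusted p = 0.000117). At the cap methyltransferase CMTR1 a weak region (chr6:37473401-37473800) had 2.70, 2.36 and 2.85 and 0.236, 0.833 and 1.36 (log2 difference -1.61, SE 0.35, adjusted p = 0.000208). It lay by an annotated start far from the canonical CMTR1 start at chr6:37433221, and the whole CMTR1 window was not called. At all 4 regions the DOX libraries lay below the vehicle libraries.

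Away from the promoters, the lower region with the smallest p lay 3024 bp upstream of SHISA5 (chr3:48507401-48508300), with 18.8, 17.3 and 20.3 with vehicle and 8.35, 8.88 and 9.04 with DOX (log2 difference -1.10, SE 0.14, adjusted p = 2.62e-08). A second, 9695 bp downstream and within an exon of ATRIP (chr3:48459901-48460400), had 2.27, 2.53 and 2.998 with vehicle and 1.09, 0.635 and 0.849 with DOX (log2 difference -1.61, SE 0.32, adjusted p = 5.66e-05). A region 3264 bp upstream of DDX60L (chr4:168540001-168541900) had 20.3, 19.4 and 17.9 with vehicle and 13.6, 11.5 and 11.8 with DOX (log2 difference -0.65, SE 0.13, adjusted p = 6.7e-05). It lies upstream of another annotated start than the higher DDX60L region. A region 1978 bp upstream of PARP10 had 6.47, 5.36 and 6.78 with vehicle and 2.91, 2.81 and 3.43 with DOX (log2 difference -1.02, SE 0.21, adjusted p = 8.88e-05). The groups did not overlap in any of the 16 DU-145 regions described, and each kept its call under the other scalings, tests and filters, with its highest bin and without any single library. The study's cutoffs in DU-145, a fold of 2 with an adjusted p under 1e-05, were passed by 7 of the 8 higher and by 1 of the 8 lower regions.

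The motifs were next counted in the 300 bases around the highest bin of each region. In BT-549 the ISRE letters occurred in 36 of the 133 member regions (27.1%), against 4.92% of all regions of that table. Of these 36 regions 22 were lower with DOX and none higher, compared with 33.9% lower among all regions with the ISRE letters. The AP-1 letters occurred in 10 member regions (7.52%, against 17.2% of all regions), and all 10 were lower, compared with 28.2% of all AP-1 regions. In DU-145 the ISRE letters occurred in 28 of 120 member regions (23.3%, against 3.68%), of which 9 were lower and 1 higher, compared with 14.99% lower and 40.6% higher among all regions with the ISRE letters. The AP-1 letters occurred in 37 member regions (30.8%, against 30.0%), of which 19 were higher and 6 lower, compared with 55.2% higher among all AP-1 regions in DU-145. A match is a description of letters and does not show a bound factor. By promoter, 24 of the 30 members with the ISRE letters were lower in BT-549, with a median log2 difference of -0.94, and 9 of the 13 without them, with a median of -0.48. In DU-145 6 of the 27 tested members with the letters were lower and 5 higher.

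The level of the set was then compared between the vehicle-treated lines, over the 321392 bins held by both tables and scaled to their sum. BST2, RTP4, IFI44, XAF1, IFI27, IFITM2 and SAMD9L had no such bins. Of the other 42 members 28 were higher in BT-549, 9 higher in DU-145 and 5 not called, while among all 14944 genes tested 36.7% were higher in BT-549 and 39.2% in DU-145. The median log2 difference, DU-145 minus BT-549, was -0.44 over the members and 0.021 over all genes. Copy number differs between cancer lines, and its part in these levels and that of the lines cannot be told apart.

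Higher in BT-549 were, first, the membrane and ISG15 genes. IFI6 had 45.3, 45.4 and 38.3 in DU-145 and 106, 114 and 96.3 in BT-549, 2.45-fold higher (log2 difference -1.29, SE 0.10, adjusted p = 4.82e-14). IFITM3 had 2.67, 1.91 and 2.11 in DU-145 and 9.80, 9.11 and 7.24 in BT-549 over only 3 bins, the same as those of IFITM1 (log2 difference -2.00, SE 0.24, adjusted p = 5.45e-09). SHISA5 had 141, 142 and 140.1 in DU-145 and 228, 248 and 207 in BT-549 (log2 difference -0.69, SE 0.07, adjusted p = 1.26e-10). None of these overlapped between the lines. ISG15 had 182, 187 and 208 in DU-145 and 377, 387 and 363 in BT-549, 1.95-fold higher (log2 difference -0.97, SE 0.07, adjusted p = 7.47e-15), over a window of 94 shared bins that also holds the starts of AGRN and HES4.

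Among the RNA effectors, DDX60 had 15.9, 12.7 and 14.2 in DU-145 and 54.3, 59.4 and 59.3 in BT-549 (log2 difference -2.02, SE 0.13, adjusted p = 4.39e-16). DDX60L had 24.9, 22.5 and 24.7 in DU-145 and 71.5, 73.4 and 84.8 in BT-549 (log2 difference -1.67, SE 0.11, adjusted p = 1.86e-15). SAMD9 had 6.89, 8.01 and 7.49 in DU-145 and 28, 27.1 and 31.1 in BT-549 (log2 difference -1.93, SE 0.16, adjusted p = 6.83e-13). These 3 were between 3.19-fold and 4.07-fold higher in BT-549. RSAD2 differed less, with 54.9, 48.0 and 41.8 in DU-145 and 109, 91.7 and 108 in BT-549 (log2 difference -1.09, SE 0.10, adjusted p = 8.27e-12). ADAR differed least of those named, with 58.1, 79.5 and 75.7 and 88.7, 87.9 and 84.8 (log2 difference -0.29, SE 0.10, adjusted p = 0.00837). The ADAR call was lost without DU-145 vehicle replicate 1 (-0.17) and within 1 kb (-0.096, adjusted p = 0.386). Every BT-549 library of these 5 genes lay above every DU-145 library.

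All 5 PARP and DTX3L genes were higher in BT-549. PARP10, which had the smallest p, had 111, 115 and 112 in DU-145 and 250.3, 293 and 265 in BT-549 (log2 difference -1.26, SE 0.07, adjusted p = 4.59e-17). The shared bins of PARP9 and DTX3L had 32.2, 32.2 and 30.4 in DU-145 and 88.9, 83.0 and 97.7 in BT-549 (log2 difference -1.51, SE 0.10, adjusted p = 3e-15). PARP14 had 25.4, 34.7 and 31.0 in DU-145 and 70.1, 68.4 and 73.6 in BT-549 (log2 difference -1.21, SE 0.11, adjusted p = 1.08e-11). Each of these was more than 2-fold higher in BT-549. Of the other induced proteins, EPSTI1 had 2.24, 2.03 and 2.82 in DU-145 and 19.4, 19.8 and 13.1 in BT-549, the widest gap of the set at 7.61-fold (log2 difference -2.93, SE 0.23, adjusted p = 1.4e-13). IFI44L had 2.97, 3.41 and 3.45 in DU-145 and 11.1, 12.8 and 11.3 in BT-549 (log2 difference -1.83, SE 0.21, adjusted p = 1.8e-09).

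The 9 members higher in DU-145 were led by USP18 and ISG20. USP18 had 52.0, 58.3 and 52.8 in DU-145 and 16.5, 17.5 and 16.3 in BT-549, 3.24-fold higher (log2 difference 1.70, SE 0.12, adjusted p = 1.69e-14). ISG20 had 143, 137 and 131 in DU-145 and 54.7, 53.5 and 59.9 in BT-549 (log2 difference 1.29, SE 0.08, adjusted p = 1.84e-15). USP18 rested on 7 shared bins. TRIM25 had 111, 139 and 138 in DU-145 and 75.8, 74.6 and 74.7 in BT-549 (log2 difference 0.79, SE 0.09, adjusted p = 7.23e-10). The shared bins of TRIM5 and TRIM22 had 42.2, 42.1 and 40.1 in DU-145 and 19.2, 16.9 and 20.8 in BT-549 (log2 difference 1.14, SE 0.13, adjusted p = 8.66e-10).

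EIF2AK2 had 47.4, 51.4 and 48.5 in DU-145 and 25.4, 25.2 and 27.0 in BT-549 (log2 difference 0.93, SE 0.11, adjusted p = 7.07e-09). PNPT1 had 28, 30.5 and 24.1 in DU-145 and 12.5, 14.3 and 11.9 in BT-549 (log2 difference 1.09, SE 0.15, adjusted p = 6.48e-08). LAP3 had 148, 145.3 and 125 in DU-145 and 85.1, 72.5 and 96.3 in BT-549 (log2 difference 0.73, SE 0.09, adjusted p = 6.71e-09). IFI35, a leucine zipper protein of the interferon response, completed the 9, at 99.4, 107 and 125 in DU-145 and 74.2, 79.7 and 63.2 in BT-549 (log2 difference 0.60, SE 0.09, adjusted p = 7.32e-07). No library of one line overlapped the other at these genes. The IFI35 window also held the starts of RPL27 and VAT1, and the IFI35 call was lost within 1 kb (0.28, adjusted p = 0.215). PML was not called, at 66.0, 68.0 and 71.6 and 68.1, 69.5 and 80.1 (log2 difference -0.078, SE 0.09, adjusted p = 0.449), and PLSCR1, TDRD7, TRIM14 and TRIM34 were not called either. In the promoter peak counts, the DU-145 vehicle libraries held 9.33 fewer members with a peak than the BT-549 vehicle libraries (exact permutation p = 0.1, the smallest possible).

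**Figure D5:**
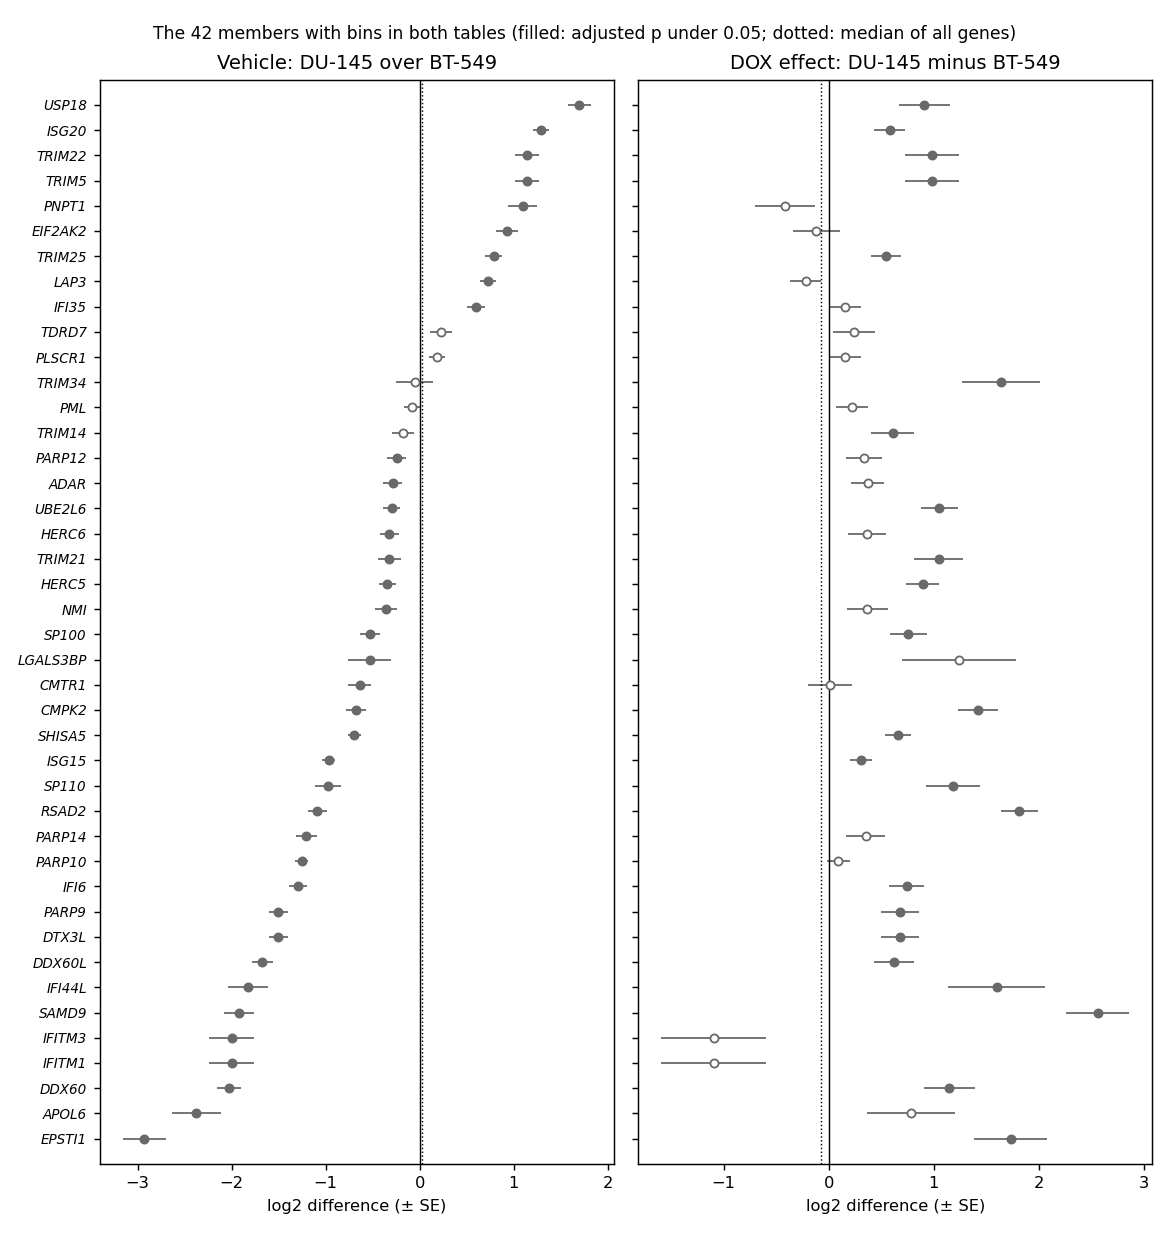
Log2 differences (x axes, with bars for the SE of the fit) of the 42 members with bins in both tables, with the genes on the y axis. The left panel shows DU-145 minus BT-549 in vehicle, and the right panel the DOX effect in DU-145 minus that in BT-549. Filled points were called, and dotted lines mark the median of all genes. In vehicle 28 of the 42 members were called higher in BT-549 and 9 higher in DU-145.

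The DOX effect was compared between the lines in the same shared bins, as an interaction term. The effect differed at 24 of the 42 members, and at each of the 24 it was higher (less negative or more positive) in DU-145 than in BT-549. Over all 14944 genes, 12.1% were called in that direction and 19.4% in the other, and of these calls 38.4% were in that direction here and 53.6% with loess offsets, which called 25 members in that direction and 2 in the other. With the sums of the whole tables in place of the shared bins, which moved the median of all genes by -0.18, the members had 21 and 3 calls. The median difference was 0.64 on the log2 scale over the members and -0.075 over all genes, and 10 of the 24 differed by at least 2-fold. The called members were 5 of the 6 ISG15 conjugation genes, all 5 TRIM genes, 6 of the 10 RNA effectors with shared bins, and 2 each of the membrane, PARP and DTX3L, PML body and other genes.

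At RSAD2 the shared bins had 54.9, 48.0 and 41.8 in DU-145 with vehicle and 53.9, 47.0 and 52.5 with DOX, but 109, 91.7 and 108 in BT-549 with vehicle and 28.9, 30.5 and 33.0 with DOX. The DU-145 groups overlapped while the BT-549 groups lay far apart (difference 1.81, SE 0.18, adjusted p = 1.7e-10). These bins include those of the neighbouring CMPK2. SAMD9 moved in opposite directions, with 6.89, 8.01 and 7.49 against 13.8, 11.4 and 13.7 in DU-145 and 28, 27.1 and 31.1 against 10.7, 5.40 and 8.68 in BT-549 (difference 2.56, SE 0.30, adjusted p = 1.2e-08). TRIM34 did so as well, with 8.14, 8.93 and 11.2 against 13.9, 12.6 and 12 in DU-145 and 9.65, 8.45 and 11.3 against 3.45, 5.94 and 3.44 in BT-549 (difference 1.64, SE 0.37, adjusted p = 0.000698). At IFI6 both lines were lower with DOX, with 45.3, 45.4 and 38.3 against 31.1, 36.9 and 35.1 in DU-145 and 106, 114 and 96.3 against 46.9, 58.1 and 47.3 in BT-549 (difference 0.74, SE 0.17, adjusted p = 0.00078). EIF2AK2, ADAR, PML and IFITM3 were not called to differ in their DOX effect (differences -0.12, 0.37, 0.22 and -1.09). ADAR was called without BT-549 DOX replicate 1 (0.45) or DU-145 vehicle replicate 2 (0.47), and IFITM3, in the other direction, without DU-145 DOX replicate 2 (-1.48). ADAR was also called with TMM or DESeq2 size factors, loess offsets, the GC correction, the DESeq2 test or the replicate block (0.38 to 0.49), and IFITM3 with loess offsets (-1.54) or the sums of the whole tables (-1.27).

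Beyond the set, the other antiviral effectors and the upstream genes of the pathway were counted as well, to be read against the shares of all genes, 10.3% lower and 18.4% higher in BT-549 and 33.4% lower and 16.3% higher in DU-145 (23% and 22.7% with TMM factors). All 10 OAS, MX and IFIT genes were lower in BT-549 with DOX, among them MX1 (log2 difference -2.41), IFIT2 (-2.27), IFIT3 (-2.22) and OAS2 (-2.001). In DU-145 2 were higher, 3 lower and 5 not called, with MX2 at -0.55, OAS1 at -0.48, IFIT2 at 0.33 and IFIT3 at 0.30. Their DOX effect differed between the lines, in the same direction, at 9 of the 10. Of the 9 genes for interferon receptors, kinases and factors, 1 was higher, 4 lower and 4 not called in BT-549, with IRF1 at -1.02, IRF9 at -0.50 and IFNAR1 at 0.54. In DU-145 7 of the 9 were lower and 2 not called, with IRF9 at -1.002, JAK1 at -0.38 and IFNAR2 at -0.33. Across these 9 upstream genes the DOX effect differed between the lines at 3, higher in DU-145 at 1 and lower at 2.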

How the data were processed

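The authors used bwa-mem for alignment to GRCh38, Picard against duplicates, and MACS2 (2.2.7.1 per the submitters' processing notes) for peaks in each library at q 0.05. They merged regions called in at least 3 replicates and split them into 100-bp bins. The deposited bin values are estimated counts, the mean fragment coverage of a bin, without depth normalization. A fragment counts in each bin it spans, so the error of the fits is that between libraries. The deposited peak lists give fold enrichment over background, a ratio, and −log10 p and q values. Here bins were summed per gene window or region, rounded and scaled by library sum. The quasi-likelihood test of edgeR (4.0.16, R 4.3.3) was applied, with Benjamini-Hochberg adjustment over all features whose total was at least 10 and a threshold of 0.05. DESeq2 1.42.0 and limma 3.58.1 (log2 of normalised coverage plus 1) were alternatives, besides other scalings, a GC correction, filters, windows and single libraries left out. The fit was tested on simulated data. Some genes of the marker and pathway lists are not reported here by name. Members and lists were chosen with earlier results of these data known. Values in every library are given for up to 12 called members in each direction by smallest p (8 for regions), and always for ISG15, IFI27, IFI44L, RSAD2, USP18, BST2, IFITM3, EIF2AK2, ADAR and PML.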

Additional observations from a re-analysis of the deposited data

Results flagged for a closer look

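The DOX effect on the windows differed between the lines, by the interaction term of edgeR's quasi-likelihood test with 3 libraries in each group, at 24 of the 42 members with bins in both tables. The lines shared no control libraries. At 10 of the 15 members given below by name the effect in BT-549 was lower than that in DU-145 by at least 2-fold. Values are the DOX effect in DU-145 minus that in BT-549 on the log2 scale.

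Among the RNA and nucleotide effectors, RSAD2 differed by 1.81 (SE 0.18, adjusted p = 1.7e-10), SAMD9 by 2.56 (SE 0.30, adjusted p = 1.2e-08), CMPK2 by 1.42 (SE 0.19, adjusted p = 1.71e-07) and DDX60 by 1.15 (SE 0.24, adjusted p = 0.000261). The RSAD2 window includes the bins of CMPK2, so the differences of RSAD2 and CMPK2 are not independent. The normalised coverage of CMPK2 was 46.7, 41.4 and 38.0 in DU-145 with vehicle and 46.0, 39.7 and 44.2 with DOX, against 69.5, 59.8 and 72.6 and 24.6, 25.2 and 27.1 in BT-549. DDX60 had 15.9, 12.7 and 14.2 and 12.9, 10.03 and 12.6 in DU-145 and 54.3, 59.4 and 59.3 and 16.2, 26.0 and 22.3 in BT-549.

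Among the genes of ISG15 conjugation, UBE2L6 differed by 1.05 (SE 0.17, adjusted p = 8.07e-06), USP18 by 0.91 (SE 0.24, adjusted p = 0.00366), HERC5 by 0.89 (SE 0.16, adjusted p = 2.71e-05) and ISG15 by 0.30 (SE 0.10, adjusted p = 0.0232). UBE2L6 had 59.1, 60.2 and 64.0 with vehicle and 65.8, 60.3 and 57.1 with DOX in DU-145, and 77.4, 68.6 and 79.2 and 28.2, 42.4 and 37.5 in BT-549. USP18 had 52.0, 58.3 and 52.8 and 50.2, 46.9 and 52.5 in DU-145 and 16.5, 17.5 and 16.3 and 8.22, 6.87 and 9.23 in BT-549. ISG15, whose window also holds the starts of AGRN and HES4, lost its call with the sums of the whole tables (0.13). It also lost it without BT-549 DOX replicate 2 (0.23), DU-145 DOX replicate 3 (0.30), or DU-145 vehicle replicate 1 (0.27) or 2 (0.28).

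Among the membrane effectors, SHISA5 differed by 0.66 (SE 0.12, adjusted p = 4.99e-05) and IFI6 by 0.74 (SE 0.17, adjusted p = 0.00078). SHISA5 had 141, 142 and 140.1 and 107, 129 and 117 in DU-145, and 228, 248 and 207 and 110.2, 127 and 125 in BT-549, lower with DOX in each line.

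Of the TRIM and nuclear body genes, TRIM21, the cytosolic antibody receptor, differed by 1.05 (SE 0.23, adjusted p = 0.000586), TRIM34 by 1.64 (SE 0.37, adjusted p = 0.000698) and SP110 by 1.19 (SE 0.26, adjusted p = 0.000417). Of the other induced proteins, EPSTI1 differed by 1.73 (SE 0.35, adjusted p = 0.000178) and IFI44L by 1.60 (SE 0.46, adjusted p = 0.00682). EPSTI1 had 2.24, 2.03 and 2.82 and 6.11, 5.62 and 5.46 in DU-145 and 19.4, 19.8 and 13.1 and 15.4, 10.4 and 13.5 in BT-549, where the groups overlapped. IFI44L rested on 4 shared bins. EPSTI1 and IFI6 were no longer called with the 1 kb window. No group held the 4 samples needed to look for a library far from its own group.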

How the results depend on the processing

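The calls in BT-549 rest on DOX libraries with the shallowest coverage of the series, and weakly covered bins were counted least precisely there. Values on the log2 scale and counts of members or member regions follow; the cause of a change was not tested. In BT-549 the count of lower windows was 31 to 37 with single libraries left out. The 1 higher window became 0 with TMM, DESeq2 size factors, loess, GC, the DESeq2 test, the 1 kb window and the study's cutoffs (fold of 2 with adjusted p under 0.01 in BT-549 and 1e-05 in DU-145), and 0 to 1 with libraries left out, while those cutoffs left 18 lower. Higher regions numbered 3 with GC, 3 with limma, 2 with the highest bin, 0 with the cutoffs and 2 to 7 with libraries left out, and lower regions 42 with the highest bin and 40 with the cutoffs. In DU-145 higher windows numbered 0 with the 1 kb window, 1 with the cutoffs and 5 to 7 with libraries left out, and lower windows 0 with the cutoffs. Lower regions numbered 42 with TMM, 47 with DESeq2 size factors, 44 with the DESeq2 test and 1 with the cutoffs, and higher regions 8 with the cutoffs. Members with a lower DOX effect in DU-145 than in BT-549 numbered 2 with loess, 3 with whole-table sums and 0 to 2 with libraries left out. The BT-549 peak difference was -16.0 members at q under 0.001, -10.3 within 10 kb and -13.8 to -12.8 with libraries left out, and that between the lines -3.33 within 10 kb. Whole-table sums moved the median of all genes between the vehicle lines by -0.13 and gave 9 and 30 members.

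Signs turned in DU-145 for ISG15 (0.0039 with TMM, 0.0068 with DESeq2 size factors, 0.0070 with the DESeq2 test, 0.074 with loess), RSAD2 (0.082 with TMM, 0.085 with DESeq2 size factors, 0.086 with the DESeq2 test, 0.095 with loess, 0.13 with GC, 0.0020 with limma, -0.095 to 0.095 with libraries left out), USP18 (0.024 with loess, 0.018 with GC), EIF2AK2 (0.026 with loess) and ADAR (-0.039 to 0.17 with libraries left out), none of them called under these settings. Within 1 kb they turned for TRIM25 (-0.16), SP100 (-0.10), TRIM14 (-0.044), TDRD7 (-0.023), ADAR (-0.071) and PML (-0.19) in DU-145, for PARP10 in BT-549 (-0.00080) and for PML between the vehicle lines (0.21). With libraries left out PML in BT-549 ran from -0.11 to 0.035 and the EIF2AK2 difference of effects from -0.22 to 0.032 (0.0051 with GC).

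The main fits did not pair libraries of equal replicate number. Deviations of same-numbered libraries correlated at 0.21, 0.12 and -0.03 in DU-145, at 0.0057, 0.13 and 0.02 in BT-549 and at 0.07, 0.01 and -0.09 between the vehicle lines. Those of differently numbered libraries ran from -0.26 to 0.18 in DU-145, from -0.11 to 0.09 in BT-549 and from -0.13 to 0.12 between the vehicle lines. Such low correlations cannot exclude a pairing. With the replicate number as a block, BT-549 had 1 higher and 37 lower windows and 5 higher and 62 lower regions, DU-145 8 and 9 windows and 32 and 20 regions, the vehicle lines 9 and 28, and the difference of effects 25 and 0, where ADAR gained a call (0.38, adjusted p = 0.0443).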
